A study of Chlamydomonas reinhardtii with 15 samples.

Results

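A set of 147 transcript probes, of 16283 on the array, was raised by DBMIB and lowered by tert-butylhydroperoxide in the green alga Chlamydomonas reinhardtii. The members were chosen on the deposited log2 signals. A probe was a member where the mean of its 3 DBMIB arrays was at least 1 above the mean of the 3 control arrays, the mean of its 3 tBOOH arrays was at least 1 below it, and its DBMIB mean was 6 or more. A log2 difference of 1 is a 2-fold difference. The DBMIB and tBOOH differences from control are therefore given as descriptions, with no test.

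DBMIB is a quinone that blocks the oxidation of plastoquinol at the cytochrome b6f complex of the photosynthetic electron transport chain, and as a quinone it can also react with thiols. Tert-butylhydroperoxide (tBOOH) is an organic hydroperoxide that is reduced by thiol- and glutathione-dependent peroxidases. 2(E)-Hexenal is an α,β-unsaturated aldehyde, a reactive electrophile that leaves release when wounded, and neutral red (NR) is a dye that forms singlet oxygen in the light.

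Total RNA was measured on 15 one-colour arrays, 3 for each of 5 groups, in the wild-type strain 4A+ of the 137c background. Cultures growing mixotrophically in the light were split into 20 ml portions and kept for 2 h with 2 µM DBMIB, 100 µM tBOOH, 0.3 mM Hexenal, 3 µM NR or, as control, no chemical. For all 15 samples the light was 100 µmol photons per square metre and second and the temperature 25 °C. Each chemical was used at 1 dose and 1 time, and the doses differ, so the size of a response cannot be set against dose. The labels describe the replicates as independent biological ones. After normalization a signal is a transcript's abundance relative to the other RNA of the culture on the same array. Changes in cell number or in total RNA per cell were therefore not measured.

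On the 12 treated arrays, 72.7% (DBMIB replicate 2) to 89.8% (NR replicate 2) of the probes carried the scanner's flag for a signal well above background, and saturated spots numbered 0. The mean deposited log2 signal of the 6 spike-in features was 12.23, 12.47 and 12.65 on the DBMIB arrays, 11.66 to 12.26 on the tBOOH arrays, 12.13 to 12.19 on the Hexenal arrays, 11.89 to 12.07 on the NR arrays and 11.45, 11.94 and 12.08 on the control arrays. The DBMIB arrays thus lay above every control array in spike-in signal. With every array centred on these features, the rule chose 114 probes, of which 94 were among the 147 members. The part of this spike-in difference in the members' values was not tested.

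Of the 147 members, 137 belonged to the array's specific probe class and 10 to its cross-hybridising class, whose probes can read more than 1 transcript. A locus tag could be given to 74 members, each to a different locus, and the other 73 are called by their probe identifiers. The table of loci gave no gene symbols or descriptions, so no member is given a function here. Tagged members lay on 16 chromosomes, with 12 on chromosome 12, which holds 16.2% of the tagged members and 11.1% of all tagged probes. No 2 tagged members stood next to each other or with at most 2 loci between them.

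As the rule required, DBMIB differences from control were positive throughout the set. They ran from 1 to 8.41 on the log2 scale with a median of 1.88, against a median of 0.06 over all 16283 probes. tBOOH differences ran from -4.62 to -1.004 with a median of -1.70, against 0.10 over all probes. The median log2 level of the members was 10.12 with DBMIB, 6.44 with tBOOH, 9.07 with Hexenal, 6.97 with NR and 8.18 in control, whereas over all probes the median was 6.95 to 6.97 in each group. All 3 DBMIB arrays lay above all 3 control arrays, and these above all 3 tBOOH arrays, in 143 of 147 members. That order held for 2.9% of all probes, and since the rule used these arrays nothing is read from it. The spread between replicates was small beside these differences: the median SD of a member was 0.19 with DBMIB, 0.31 with tBOOH and 0.27 in control.

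The members covered a wide range of abundance. Group means with DBMIB ran from 6.03 to 18.02, and 18 members had a control mean under 5. Every member was well above background on all 3 DBMIB arrays. On the tBOOH arrays 111 members were well above background on all 3, 13 on 1 or 2, and 23 on none. For the last 23 the size of the fall with tBOOH is not known, since no tBOOH array had them well above background.

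At the threshold, the members just inside and the probes just outside hardly differed. Probe GT_Chlamydomonas_specific_002607 had a DBMIB difference of exactly 1 and CHLRE_15g643385v5 of 1.01, while the probes just outside, GT_Chlamydomonas_specific_006116 and GT_Chlamydomonas_specific_008050, had 0.985 and 0.985. On the tBOOH side CHLRE_02g085800v5 had a difference of -1.004 and GT_Chlamydomonas_specific_003785 of -1.01. CHLRE_02g088600v5 and GT_Chlamydomonas_specific_009634, both at -0.998, were just outside.

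**Figure D1:**
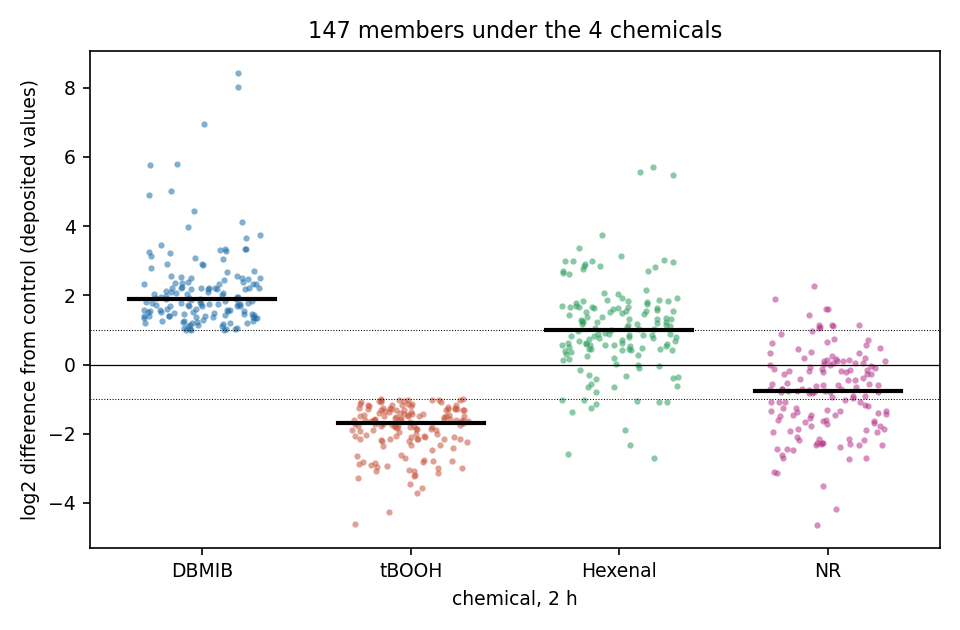
Log2 difference from control of the 147 members under each of the 4 chemicals, on the deposited values, with 1 point per member and a bar at the median. The dotted lines mark 1 and -1, which the rule used for DBMIB and tBOOH, so the first 2 columns are fixed by the choice of members. The Hexenal median is 1.002 and the NR median is -0.76, and both columns reach to either side of 0.

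The 8 members that differed most between DBMIB and tBOOH had DBMIB means from 8.93 to 17.74 and control means from 3.97 to 13.60. Probe GT_Chlamydomonas_specific_011785 read 12.03, 11.99 and 11.99 with DBMIB, 2.37, 2.60 and 2.63 with tBOOH, and 3.86, 3.88 and 4.22 in control. The DBMIB arrays stood far above the other 6, and the tBOOH arrays lay under the control arrays without overlap. As no tBOOH array had this probe well above background, the ratio of DBMIB to tBOOH, 560-fold, is nominal and no strict lower bound. DBMIB exceeded control 259-fold.

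CHLRE_03g152750v5 had the largest rise with DBMIB over control of the set. It read 14.23, 13.77 and 13.78 with DBMIB, 3.20, 5.35 and 4.84 with tBOOH, and 4.85, 5.51 and 6.18 in control. The DBMIB mean was 341-fold above control, where detection was again not checked. The tBOOH and control arrays overlapped, and the tBOOH difference of -1.05 was close to the threshold.

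CHLRE_11g467644v5 was among the most abundant members with DBMIB. Its levels were 17.68, 17.85 and 17.70 with DBMIB, 8.70, 8.96 and 8.41 with tBOOH, and 10.84, 10.55 and 10.95 in control. The 3 groups did not overlap, and the DBMIB mean was 125-fold above control. With Hexenal it read 9.36, 10.93 and 11, and with NR 9.29, 11.89 and 10.91. These arrays overlapped with each other and with control, so the high level was seen with DBMIB and with none of the other 3 chemicals.

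Probe GT_Chlamydomonas_specific_013026 read 15.11, 14.82 and 14.67 with DBMIB, 7.28, 6.73 and 6.87 with tBOOH, and 10.0, 8.17 and 9.01 in control. The control arrays differed more among themselves (SD 0.92) than those of the other groups, yet lay between the DBMIB and tBOOH arrays without overlap. DBMIB exceeded tBOOH 240-fold.

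CHLRE_17g733350v5 and CHLRE_12g501950v5 were dim in control and on no tBOOH array well above background. CHLRE_17g733350v5 read 9.98, 9.61 and 9.59 with DBMIB, 1.37, 2.86 and 1.68 with tBOOH, and 4.51, 3.70 and 3.70 in control. DBMIB exceeded tBOOH by a nominal 116-fold. CHLRE_12g501950v5 read 9.30, 8.98 and 8.77 with DBMIB, 1.27, 2.89 and 1.42 with tBOOH, and 5.46, 4.54 and 5.13 in control. Its ratio of DBMIB to tBOOH was a nominal 70.3-fold, and in both members the 3 groups of arrays did not overlap.

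CHLRE_04g231222v5 was abundant in control and fell furthest with tBOOH among these 8 members. Its levels were 16.24, 16.07 and 16 with DBMIB, 8.97, 9.57 and 9.53 with tBOOH, and 13.30, 13.77 and 13.74 in control. The tBOOH difference of -4.25 was larger in size than the DBMIB difference of 2.50.

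Probe GT_Chlamydomonas_specific_012211 read 8.80, 9.32 and 8.67 with DBMIB, 1.41, 3.11 and 2.12 with tBOOH, and 3.62, 4.62 and 3.83 in control. No tBOOH array had it well above background, and the ratio of DBMIB to tBOOH was a nominal 62.8-fold.

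**Figure D2:**
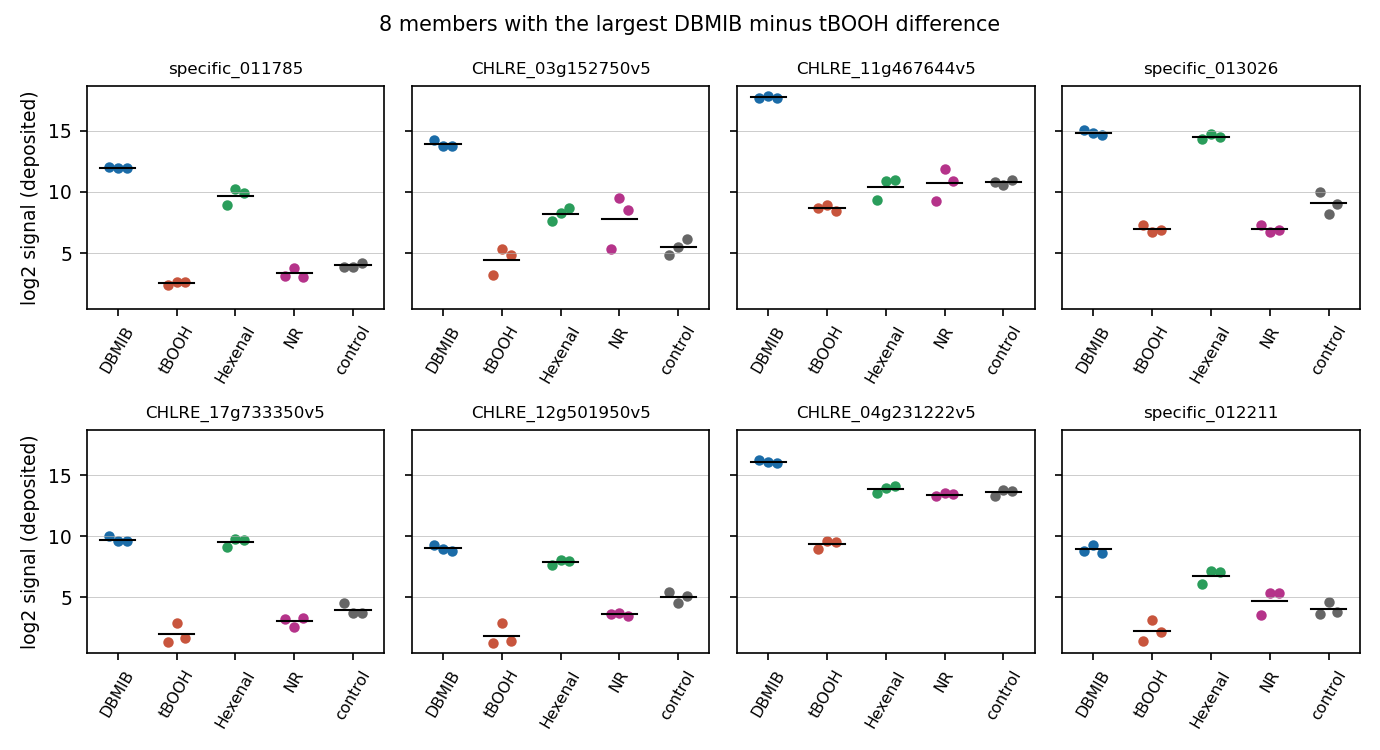
Deposited log2 signal of the 8 members with the largest DBMIB minus tBOOH difference, 1 panel per member, with 1 point per array and a bar at the mean of 3. Panel titles shorten probe identifiers to their last part. In every panel the DBMIB arrays are the highest group or level with Hexenal, the tBOOH arrays are lowest or level with NR, and the Hexenal arrays lie close to DBMIB in GT_Chlamydomonas_specific_013026 and CHLRE_17g733350v5 but at the control level in CHLRE_11g467644v5 and CHLRE_04g231222v5.

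The 3 members highest with DBMIB were CHLRE_07g339150v5, CHLRE_11g467644v5 and CHLRE_09g386750v5. CHLRE_07g339150v5 read 18.02, 18.19 and 17.85 with DBMIB, 11.99, 13.97 and 12.22 with tBOOH, and 15.72, 16.16 and 15.98 in control. CHLRE_09g386750v5 read 17.22, 16.98 and 16.84 with DBMIB, 13.65, 13.58 and 13.09 with tBOOH, and 14.94, 14.77 and 14.82 in control. Both were bright on every array, and in both the 3 groups did not overlap. A further member, CHLRE_08g372100v5, followed CHLRE_09g386750v5 within 0.45 on each of the 15 arrays; it is named here after its values were seen.

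The comparison of Hexenal with NR was the one whose arrays took no part in choosing the members, and it was tested. Most members were higher with Hexenal than with NR. Of the 147, 103 (70.1%) were called higher and 4 (2.72%) lower with Hexenal at a limma adjusted p under 0.05 over all probes, and 40 were not called. Over all 16283 probes, 16.5% were called higher and 27.5% lower. The median Hexenal minus NR difference was 1.61 over the members and -0.13 over all probes, on log2 processed signals centred on each array's 75th percentile. These percentile-centred signals also gave each member's Hexenal minus NR difference below. The array readings printed beside it are deposited values, so the 2 can differ. At least 2-fold higher calls numbered 94, and at least 4-fold higher ones 61, against 1516 and 503 of all 16283 probes.

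The share of all probes called depended on the scaling of the arrays. On the deposited quantile-normalized values 21.1% of all probes were called higher and 22.2% lower, with a median of 0.04, and 109 members were higher and 4 lower. With arrays centred on the spike-in features 8.84% of all probes were higher and 35.6% lower, with a median of -0.44, and 91 members were higher and 5 lower. The members' median was 1.75 on the deposited values and 1.30 with spike-in centring, so it lay above that of all probes under each scaling.

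On the percentile-centred signals, all 3 Hexenal arrays lay above all 3 NR arrays in 102 members, against 23.8% of all probes. The reverse order held in 4 members, against 34.2% of all probes. Higher calls outnumbered lower ones in each range of abundance. Among 33 members at 10 or more in control, 22 were higher and 3 lower with Hexenal. Of 76 members from 6 to 10, 57 were higher, and of 38 members under 6, 24 were higher and 1 lower. Members without a locus tag were called higher in 59 of 73 cases and tagged ones in 44 of 74. Of the 10 cross-hybridising members 9 were higher, which do not all count as separate transcripts, since 4 of these 10 formed 2 pairs whose members differed by at most 0.27 on any array. Shares over all probes of the same abundance range, tag status or probe class were not worked out. These splits are therefore counts of members only, and nothing is read from their differences.

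**Figure D3:**
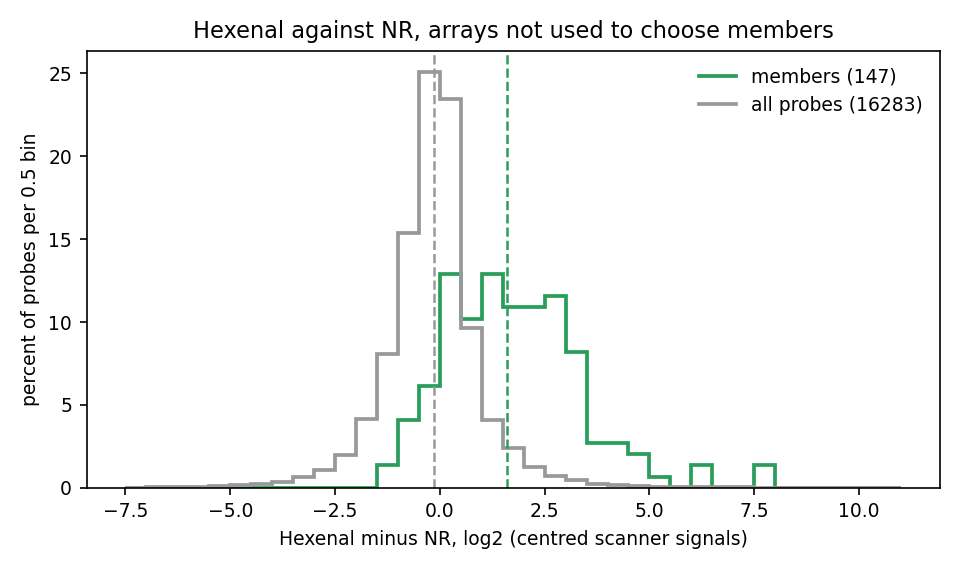
Distribution of the Hexenal minus NR difference (log2, signals centred on each array's 75th percentile) for the 147 members and for all 16283 probes, as the percent of each set in steps of 0.5. Dashed lines mark the medians, 1.61 for the members and -0.13 for all probes.

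The 6 members with the largest Hexenal over NR differences were well above background on every Hexenal array, and on the NR arrays they ranged from well above background on all 3 to on none. Probe GT_Chlamydomonas_specific_013026 read 14.34, 14.71 and 14.54 with Hexenal and 7.27, 6.71 and 6.92 with NR, so that Hexenal sat near the DBMIB level and NR at the tBOOH level. The difference was 7.80 ± 0.22 (SE, n = 3 each; limma adjusted p = 1.45e-10), or 223-fold. Probe GT_Chlamydomonas_specific_007495 read 9.28, 9.54 and 9.13 with Hexenal, 2.13, 1.65 and 1.72 with NR, and 7.11, 6.13 and 6.19 in control. NR lay under control by 4.64 (SE 0.25, limma adjusted p = 9.43e-09), the lowest NR difference of the members.

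For that probe Hexenal exceeded NR by a nominal 131-fold, as no NR array had it well above background (fitted log2 difference 7.55, SE 0.17, limma adjusted p = 3.29e-11). CHLRE_17g733350v5 read 9.10, 9.79 and 9.67 with Hexenal and 3.19, 2.57 and 3.32 with NR, a difference of 6.35 ± 0.31 (SE, n = 3 each; limma adjusted p = 2.11e-08). Hexenal was again level with DBMIB, while NR was well above background on 1 array.

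Probe GT_Chlamydomonas_specific_011785 read 8.97, 10.26 and 9.90 with Hexenal and 3.09, 3.82 and 3.07 with NR (difference 6.26, SE 0.32, limma adjusted p = 2.69e-08). CHLRE_17g700950v5 read 7.96, 8.62 and 7.64 with Hexenal, 2.94, 2.79 and 2.53 with NR, and 4.64, 4.93 and 5.68 in control. Its Hexenal level was above, and its NR level below, all control arrays. No NR array had it well above background. The fitted difference of Hexenal from NR was 5.07 (SE 0.42, limma adjusted p = 1.26e-06), a fitted ratio of 33.65-fold that is no lower bound.

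Probe GT_Chlamydomonas_specific_007574 read 9.28, 9.92 and 9.50 with Hexenal, 4.82, 4.41 and 4.61 with NR, and 7.06, 6.402 and 7.32 in control, a Hexenal minus NR difference of 4.89 ± 0.24 (SE, n = 3 each; limma adjusted p = 2.57e-08). Neither set of arrays overlapped with control. With a normexp background correction and an offset of 50, which by construction shrinks differences of dim probes, the 5 differences after GT_Chlamydomonas_specific_013026 were 3.61, 3.57, 3.75, 2.36 and 3.24 in the order given, all with adjusted p values of 6.24e-06 or less.

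4 members were called lower with Hexenal than with NR. CHLRE_06g284650v5 read 11.60, 11.72 and 11.71 with Hexenal, 13.12, 12.67 and 12.60 with NR, and 12.69, 12.70 and 12.69 in control. With DBMIB it read 14.60, 14.69 and 14.58 and with tBOOH 9.13, 9.22 and 8.99. NR thus sat at the control level and Hexenal below it. The Hexenal minus NR difference was -1.09 ± 0.17 (SE, n = 3 each; limma adjusted p = 0.00017).

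Probe GT_Chlamydomonas_specific_009749 read 9.65, 10.77 and 10.33 with Hexenal and 10.88, 11.44 and 11.25 with NR (difference -0.95, SE 0.26, limma adjusted p = 0.00922). Its control arrays, at 10.09, 10.79 and 11.57, overlapped with both. CHLRE_12g522750v5 read 4.38, 4.61 and 4.83 with Hexenal and 4.72, 5.50 and 5.64 with NR. These deposited values overlapped, with a difference of -0.68 (limma adjusted p = 0.0435). On the percentile-centred signals the arrays did not overlap, and the difference was -1.01 ± 0.29 (SE, n = 3 each, limma adjusted p = 0.0129). That call was lost without NR replicate 3 (-0.79, limma adjusted p = 0.0642) and with normexp (-0.11, limma adjusted p = 0.535).

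The fourth, CHLRE_12g554700v5, read 10.48, 10.95 and 10.80 with Hexenal and 10.98, 12.20 and 11.66 with NR (difference -0.84, SE 0.27, limma adjusted p = 0.0224). Its groups overlapped on the centred scale used for the test, which excluded it from the rule for named members, and it is named after its values were seen. Without NR replicate 3 the number of members called lower was 2.

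Among the members that differed most between DBMIB and tBOOH, Hexenal and NR were not always apart. CHLRE_12g501950v5 read 7.62, 8.08 and 7.99 with Hexenal and 3.65, 3.73 and 3.49 with NR, a difference of 4.00 ± 0.30 (SE, n = 3 each; limma adjusted p = 6e-07; 2.05 with normexp). Probe GT_Chlamydomonas_specific_012211 read 6.13, 7.16 and 7.06 with Hexenal and 3.53, 5.32 and 5.37 with NR. The difference of 1.78 (SE 0.49, limma adjusted p = 0.00961) was 1.14 without NR replicate 1, the dimmest of the 3, and 0.89 with normexp, and was called in each.

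CHLRE_03g152750v5 read 7.65, 8.29 and 8.67 with Hexenal and 5.34, 9.55 and 8.50 with NR. The NR arrays spread over more than 4 log2 units (SD 2.19), and the Hexenal minus NR difference was 0.27 with a 95% interval from -1.64 to 2.18 (limma adjusted p = 0.827). It was -0.98 without NR replicate 1 and 1.14 without NR replicate 2.

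For CHLRE_11g467644v5 the difference was -0.24, with an interval from -1.46 to 0.98 (limma adjusted p = 0.756), and -0.95 without NR replicate 1 and 0.36 without NR replicate 2. CHLRE_04g231222v5 read 13.55, 13.94 and 14.14 with Hexenal and 13.26, 13.51 and 13.44 with NR. Its difference of 0.70 (SE 0.22, limma adjusted p = 0.02) was lost on the deposited values (0.47, adjusted p = 0.0762), with spike-in centring (0.39, adjusted p = 0.311) and without Hexenal replicate 2 (0.62, adjusted p = 0.0739), Hexenal replicate 3 (0.58, adjusted p = 0.0853) or NR replicate 1 (0.62, adjusted p = 0.066).

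The other 2 of the 3 members brightest with DBMIB were not called between Hexenal and NR. CHLRE_07g339150v5 read 16.23, 16.79 and 16.71 with Hexenal and 15.69, 16.04 and 16.03 with NR. These deposited values gave a difference of 0.66 (limma adjusted p = 0.178). On the percentile-centred signals the difference was 1.07 with an interval from 0.16 to 1.97 (limma adjusted p = 0.0543). It was called under some other settings, among them without Hexenal replicate 1 (1.28, limma adjusted p = 0.0488), in a fit of the 6 arrays alone (limma adjusted p = 0.00502) and after a filter on dim probes (limma adjusted p = 0.0461). CHLRE_09g386750v5 read 15.10, 15.61 and 15.56 with Hexenal and 15.47, 15.98 and 15.97 with NR. These deposited values gave a difference of -0.38 (limma adjusted p = 0.147). On the percentile-centred signals the difference was -0.02 with an interval from -0.53 to 0.48 (limma adjusted p = 0.944).

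Probes that met other parts of the rule set the members' count in context. Of 120 probes that met the thresholds the other way round, raised by tBOOH and lowered by DBMIB, 2 were called higher and 81 lower with Hexenal than with NR, with a median of -1.004. Both of the next sets also required a DBMIB mean of 6 or more, so they leave out probes dimmer than that with DBMIB. Among 2435 such probes raised by DBMIB but not lowered by tBOOH past the threshold, 46.4% were higher, with a median of 0.50. Among 1892 such probes lowered by tBOOH but not raised by DBMIB past the threshold, 12.1% were higher and 54.4% lower, with a median of -0.70. The differences between these shares and the members' 70.1% were not tested.

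**Figure D4:**
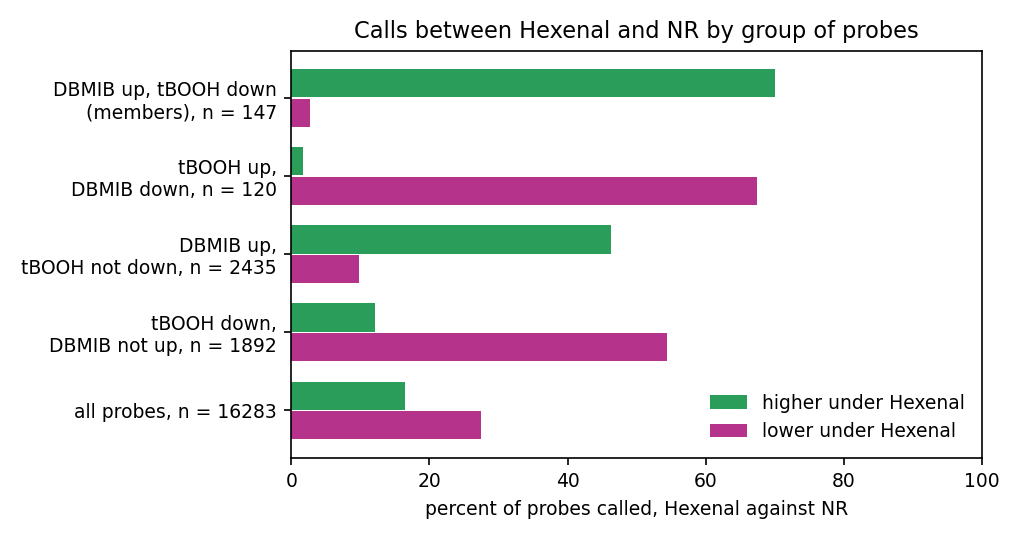
Percent of probes called higher (green) and lower (purple) with Hexenal than with NR, at a limma adjusted p under 0.05, for the members, the 3 other groups of probes and all probes, with the number of probes in each label. Members have 70.1% higher and 2.72% lower, and probes with the opposite DBMIB and tBOOH pattern have 1.67% higher and 67.5% lower.

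Set against control, more members were called higher than lower with Hexenal, and more were called lower than higher with NR. These comparisons share their control arrays with the rule and with each other, so their counts are not independent of the choice of members. With Hexenal 95 members were higher and 15 lower than control at a limma adjusted p under 0.05, against 31.6% and 25.7% of all probes. Of the higher calls 73 were at least 2-fold, against 2950 such calls over all 16283 probes. The median Hexenal difference from control was 1.002, against 0.13 over all probes, and members ranged from -2.70 to 5.72. With NR 15 members were higher and 83 lower than control, against 23.7% and 21.3% of all probes. Of the lower calls 61 were at least 2-fold, against 1991 such calls over all 16283 probes. The median NR difference was -0.76, against 0.01, with a range from -4.64 to 2.28.

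With arrays centred on the spike-in features, 16.8% of all probes were higher and 29.1% lower with Hexenal than in control, with a median of -0.20 over all probes, and 65 members were higher and 18 lower. Likewise 13.9% of all probes were higher and 19.7% lower with NR, with a median of -0.13, and 10 members were higher and 76 lower. The direction of the members' medians held, at 0.68 for Hexenal and -0.90 for NR.

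DBMIB gave the highest of the 5 group means in 121 members and Hexenal in the other 26. tBOOH gave the lowest mean in 116 members and NR in the other 31. The rule placed DBMIB above and tBOOH below control in every member, so these ranks were largely fixed and nothing is read from them. Hexenal means lay above control in 121 members and below it in 26, and NR means lay above control in 37 and below it in 110. Over all 16283 probes, Hexenal means lay above control in 9162 and NR means in 8254.

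Among named members, GT_Chlamydomonas_specific_013026 was 5.47 ± 0.34 above control with Hexenal (limma adjusted p = 6.12e-09) and fell by 2.09 with NR (SE 0.34, limma adjusted p = 0.00016). GT_Chlamydomonas_specific_011785 rose by 5.72 with Hexenal (SE 0.28, limma adjusted p = 7.59e-10), the largest Hexenal difference of the set, while its NR difference of -0.66 was not called (limma adjusted p = 0.0668). CHLRE_12g501950v5 rose by 2.85 with Hexenal (SE 0.35, limma adjusted p = 5.65e-06) and fell by 1.42 with NR (SE 0.35, limma adjusted p = 0.0041).

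Other members differed from these. CHLRE_06g284650v5 fell by 1.02 with Hexenal (SE 0.15, limma adjusted p = 4.05e-05), whereas its NR difference was 0.10 (limma adjusted p = 0.616). CHLRE_09g386750v5 rose by 0.96 with NR (SE 0.20, limma adjusted p = 0.00139), and with spike-in centring the difference was 0.82 (limma adjusted p = 0.0509).

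CHLRE_03g152750v5 was above control with Hexenal (2.69, SE 0.81, limma adjusted p = 0.0101) and with NR (2.28, SE 0.81, limma adjusted p = 0.0317). The NR call was lost in a fit of the 6 arrays of both groups alone (2.28, adjusted p = 0.089) and without NR replicate 2 (1.41, adjusted p = 0.171), NR replicate 3 (1.93, adjusted p = 0.114), control replicate 1 (1.95, adjusted p = 0.106) or control replicate 2 (2.28, adjusted p = 0.0695), and without NR replicate 1 the difference was 3.51.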

How the data were processed

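The 3 arrays of each group were grouped by the labels, which call them independent biological replicates. The table of the whole series holds log2 values for the 15 arrays as deposited by the authors; its columns share 1 distribution, so they were quantile-normalized, by steps not given in the sources used here. For the 12 treated arrays the deposited scanner tables give linear spot intensity without normalization across arrays, and spot flags. Control flags were not used here.

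Members and lists were chosen with earlier results of these data known. Differences from control were fitted on the deposited log2 values over 5 groups with limma 3.58.1 (lmFit, eBayes; R 4.3.3). Hexenal and NR were compared on log2 processed signal minus each array's 75th percentile, in a fit of the 12 treated arrays. Spots flagged as non-uniform or population outliers were first left out, except where all spots of a probe on an array were flagged. All 16283 probes were fitted with no filter on low values and no pseudocount, and Benjamini-Hochberg adjustment was over all of them, so all 147 members were tested. The number of arrays limits the precision. A probe was well above background on an array where at least 0.5 of its spots were. For ratios written as nominal, a reading under the array's lowest signal well above background was replaced by that signal. A higher reading entered as itself even where it was not well above background, so a nominal ratio need not be a lower bound.

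Named members are those with the 6 largest and 6 lowest Hexenal minus NR differences among called members without overlap (3 qualified as lower), the 8 largest DBMIB minus tBOOH differences, the 3 highest DBMIB means, and 2 on each side of the threshold. Locus tags were matched by transcript number to a RefSeq table of assembly Chlamydomonas_reinhardtii_v5.5 (6942 of 7999 numbers below 200000, 86.79%, against 15.99% with shifted numbers). The array was designed on an earlier build, so no coordinates are given. The gene lists needed gene descriptions and were not applied. Normexp used the median spot signal, since the tables as given hold no mean signal, and a flagged local background was replaced by the array's median. Between NR and control, deviations of same-numbered arrays correlated at 0.217, 0.141 and 0.205. The labels give no pairing and differently numbered arrays were not compared, so whether the numbers pair the arrays is not known. All main fits used the group only, and the replicate number was a block in an alternative fit. The fits were tested on simulated data. Alternatives are described in the closing section.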

Additional observations from a re-analysis of the deposited data

How the results depend on the processing

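Counts and medians of members kept their direction under every setting run; the largest moves were these. For Hexenal against NR the members' median of 1.61 was 1.04 with normexp (0.10 over all probes) and 1.30 with spike-in centring. Leaving out 1 array gave 95 to 111 members higher and 2 to 4 lower, with a median from 1.505 to 1.75. Of all probes 14.1% to 15.2% were then higher and 22.6% to 26.6% lower. For Hexenal against control the median of 1.002 was 0.68 with spike-in centring. Without 1 array it was 0.86 to 1.15, with 82 to 101 higher and 12 to 15 lower. Of all probes 28.3% to 31% were then higher and 23.6% to 25.3% lower. For NR against control the median without 1 array was -0.86 to -0.70, with 13 to 18 higher and 74 to 78 lower. Of all probes 19.7% to 23% were then higher and 16.9% to 20.6% lower. The rule chose 66 probes at 1.5 or more on both sides, 134 at a DBMIB mean of 7 or more, 144 to 156 without 1 array and 114 with spike-in centring; 113 of the 147 were chosen without each of the 9 arrays in turn. In the 114, an alternative added after seeing the data, 5 were lower with Hexenal than control and 53 lower with NR than control, and 80 were higher and 3 lower with Hexenal than NR. Of all probes 25.7% were lower with Hexenal than control and 21.3% lower with NR than control. For Hexenal against NR 16.5% of all probes were higher and 27.5% lower. The other added alternatives, members chosen without DBMIB replicate 2 and the specific class alone, moved no count by over 1.5 times. Single members were followed through the settings only where named for their Hexenal minus NR or DBMIB minus tBOOH difference or their DBMIB mean. Of these, 3 that were not called in Hexenal against NR changed sign under some settings. CHLRE_03g152750v5 was -0.044 with spike-in centring and ran from -0.985 without NR replicate 1 to 1.144 without NR replicate 2. CHLRE_11g467644v5 was 0.319 without Hexenal replicate 1 and ran from -0.952 without NR replicate 1 to 0.362 without NR replicate 2. CHLRE_09g386750v5, at -0.02 as reported, was -0.213 without NR replicate 1 but 0.036 without NR replicate 3. It was 0.105 without NR replicate 2 and 0.170 without Hexenal replicate 1. Sign changes in the other members that were not called are not known. The causes were not tested.

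Replicate numbers are shared between groups. Over all groups, the correlation of same-numbered arrays' deviations was over 0.1 in 20 of 30 pairs, from -0.11 to 0.27. It was 0.126, 0.214 and 0.081 between Hexenal and NR, -0.109, 0.128 and -0.062 between Hexenal and control, and 0.217, 0.141 and 0.205 between NR and control. Differently numbered arrays were not compared, so these values do not settle whether the numbers pair the arrays. With the replicate number as a block, 107 members were higher and 5 lower with Hexenal than NR, against 18.1% and 29.2% of all probes. Set against control, 99 were higher and 15 lower with Hexenal, against 32.6% and 26.5% of all probes. With NR 15 were higher and 83 lower than control, against 24.5% and 22.8% of all probes. With the block, CHLRE_07g339150v5 was called in Hexenal against NR (limma adjusted p = 0.0214) and CHLRE_17g733350v5 was not called in NR against control (limma adjusted p = 0.0548). The files give no slide or scan, so that block was not run. Of dim members, signal over background limits what is known with tBOOH and NR.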
